A study of Homo sapiens with 16 samples.

Results

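The genes described here encode the nuclear subunits of the oxidative phosphorylation complexes, and they were chosen by name. Symbols were taken that begin with NDUFA, NDUFB, NDUFC, NDUFS or NDUFV and a digit, with UQCR, with ATP5, or with COX4 to COX8, together with SDHA, SDHB, SDHC and SDHD. The table held 89 such symbols, and 83 of them had a mean of at least 1 FPKM over the 16 libraries, of 11647 loci that passed the same filter and 24293 loci in all. FPKM counts fragments of a transcript relative to its length and to all mapped fragments, so levels of different genes are compared per length. By name, 37 of the 83 genes belong to complex I, 4 to complex II, 10 to complex III, 13 to complex IV and 19 to complex V. The 6 genes under the filter were mostly forms known from muscle, testis or other special tissues: NDUFA4L2 (mean 0.312 FPKM), COX8C (0.124), COX7B2 (0.0438), COX7A1 (0.0131), COX6A2 (0.00204) and COX4I2, which was listed at 0 in every library.

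HCC4006 is a cell line from a lung adenocarcinoma that carries an activating EGFR mutation. Its cells had been treated for 24 hours with gefitinib and AZ1366 together at 100 nM each (the combination), with 100 nM gefitinib, with 100 nM AZ1366, or with the DMSO vehicle, and polyA RNA was sequenced from 4 libraries per group. Gefitinib blocks the EGFR kinase, and AZ1366 inhibits the tankyrases, poly-ADP-ribosyltransferases best known for the turnover of axin in Wnt signalling. The labels call the treatment quadruplicate without naming separate cultures, so each p-value rests on the spread among these libraries, which may be technical, and all groups come from 1 cell line.

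Oxidative phosphorylation takes place in the inner mitochondrial membrane. Complex I (NADH dehydrogenase) and complex II (succinate dehydrogenase) pass electrons to ubiquinone, complex III hands them to cytochrome c, complex IV (cytochrome c oxidase) passes them to oxygen, and complex V (ATP synthase) uses the proton gradient to make ATP. Except in complex II, which is wholly nuclear, a few central subunits are encoded by mitochondrial DNA and the rest by the nuclear genes treated here. Many of the nuclear genes are known to share promoter elements for the transcription factors NRF1, GABP (an ETS factor) and YY1.

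Of the 83 genes, 73 encode structural subunits under their own symbol. The other 10 are listed apart where it matters. Of these, 3 are joined loci that carry a subunit and a neighbouring gene (ATP5E/SLMO2, ATP5J2/PTCD1 and NDUFC2/KCTD14). A further 4 are copies (UQCRHL, UQCRBP1, ATP5EP2 and ATP5L2) whose reads cannot be told with certainty from those of their parent genes. The last 3 match the letters and are not counted as structural subunits (COX4NB, now called EMC8, ATP5S and ATP5SL). NDUFA4 is counted with complex I by its name, although its protein is known to work with complex IV. The complex III subunit CYC1 and the electron carrier cytochrome c (CYCS) fall outside the name rule and are described with the related genes.

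The promoters of 66 of the 83 genes were found in the RefSeq table of GRCh38.p14, which gives 250 bases before and 50 after each start. Windows were searched on both strands for the letters GCGCATGC, a core of the NRF1 element, CCGGAAGT, a core of the ETS element bound by GABP, and AAGATGGC, a core of the YY1 element. The NRF1 letters stood in 13 of the 66 windows (19.7%), against 3.05% of all 35116 promoters in the table and 4.81% of those of tested loci. The ETS letters stood in 9 (13.6%, against 4.14% and 7.72%), and the YY1 letters in 11 (16.7%, against 2.89% and 4.91%). At least 1 of the 3 elements was found in 27 windows, a count that was not made for the other promoters. Below are 200 bases before the start of 4 genes, shown because they set genes that moved in different directions beside the elements they hold; they were picked after the values were seen. Capitals mark matches to the searched letters, and each line reads 5′ to 3′ on the strand of its gene.
COX5B, chr2:97645862-97646061, plus strand: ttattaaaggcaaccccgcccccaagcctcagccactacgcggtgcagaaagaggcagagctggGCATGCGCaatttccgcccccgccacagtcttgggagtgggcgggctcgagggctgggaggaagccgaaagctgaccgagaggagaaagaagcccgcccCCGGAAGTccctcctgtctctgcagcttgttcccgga
SDHD, chr11:112086673-112086872, plus strand: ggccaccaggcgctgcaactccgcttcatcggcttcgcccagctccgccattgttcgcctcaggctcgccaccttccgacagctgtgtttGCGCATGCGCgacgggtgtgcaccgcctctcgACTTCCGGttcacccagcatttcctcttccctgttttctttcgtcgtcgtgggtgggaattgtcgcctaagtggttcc
SDHB, chr1:17054033-17054232, minus strand: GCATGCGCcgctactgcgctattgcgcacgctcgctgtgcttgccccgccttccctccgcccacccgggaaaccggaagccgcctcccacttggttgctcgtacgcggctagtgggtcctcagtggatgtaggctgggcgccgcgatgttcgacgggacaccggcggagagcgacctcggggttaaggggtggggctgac
NDUFB1, chr14:92121707-92121906, minus strand: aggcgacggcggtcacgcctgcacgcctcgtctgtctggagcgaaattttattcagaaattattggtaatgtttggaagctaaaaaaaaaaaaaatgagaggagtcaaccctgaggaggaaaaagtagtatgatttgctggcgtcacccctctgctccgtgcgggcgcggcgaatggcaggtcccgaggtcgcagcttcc
In SDHD the NRF1 letters match on both strands and overlap in 1 run. In the stretches printed, COX5B and SDHD hold NRF1 and ETS letters, SDHB holds NRF1 letters, and NDUFB1 holds none of the 3. The longer windows searched hold 1 YY1 match more in SDHB and 1 ETS match more in COX5B, and none in NDUFB1.

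Summed FPKM per library ran from 433357 to 478179 over all loci, and 11326 to 11799 loci reached 1 FPKM. Read depth is unknown, so no counting interval can be given. Libraries of 1 group correlated at 0.991 to 0.998 across loci, and no 2 libraries were identical. On the first principal component (71.8% of the variance) the combination libraries lay between 31 and 38.1 and the vehicle libraries between -39.3 and -34.0, while AZ1366 library 1 lay at -19.6, apart from the other AZ1366 libraries at -6.50 to -3.10. Each library's log2 deviation from the vehicle mean was related to transcript length across loci, with Spearman's rho from -0.355 to -0.307 in combination, from -0.324 to -0.106 in gefitinib, from -0.467 to -0.151 in AZ1366 and from -0.184 to 0.176 in vehicle libraries. Gefitinib library 4 was lowest of its group in this rho and AZ1366 library 1 and vehicle library 1 highest of theirs, and the same libraries stood at the edge of their groups for many of the genes below. All 8 epithelial markers passed the filter, with summed levels of 3920 to 4320 FPKM in combination, 4610 to 4993 in gefitinib, 3924 to 5204 in AZ1366 and 5371 to 6119 in vehicle libraries. The part of this shift in the results below was not tested. Markers of other cell types were low. The 4 endothelial markers summed to 3.57 to 3.94 FPKM in combination, 2.25 to 2.69 in gefitinib, 0.981 to 1.36 in AZ1366 and 0.717 to 0.818 in vehicle libraries, the 5 immune markers to 1.70 to 1.99, 1.25 to 1.49, 1.35 to 1.66 and 1.06 to 1.28 FPKM in the same order of groups, and the 5 stromal markers to 3.22 to 3.65, 3.72 to 3.93, 1.95 to 2.54 and 2.27 to 2.66 FPKM. None of these markers was at 0 in all libraries. The endothelial sum followed the order combination, gefitinib, AZ1366 and vehicle, and its part in the results below was not tested. These are bulk libraries, so more cells that express a gene and more RNA per cell cannot be told apart.

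Across complexes I to V, most nuclear subunit genes had more transcript after the combination than after vehicle. In limma on log2(FPKM + 1), 65 of the 83 genes were higher in combination than in vehicle libraries at an adjusted p under 0.05, where 29.9% of all loci tested were higher. Only 6 genes were lower, where 49.4% of all loci were lower, and 12 did not pass. The median log2 change was 0.47 for the 83 genes and -0.15 for all loci. Without the 10 loci that are joined, copies or other genes, 57 of 73 were higher and 5 lower. The 65 higher and 6 lower genes were also those whose 4 combination libraries lay wholly above or below the 4 vehicle libraries. Such separation was not counted over all loci, so it adds no support to the test.

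Each compound alone moved fewer of them. With gefitinib 46 genes were higher and 7 lower than with vehicle, against 27.7% higher and 36.9% lower among all loci, and the median log2 change was 0.21 against -0.06. With AZ1366 51 genes were higher and 3 lower, against 18.6% and 39.8% of all loci, and the median was 0.32 against -0.10. The 3 comparisons share the vehicle libraries, among which library 1 was lowest for many of these genes. Without it 38 genes were higher with gefitinib (median 0.15) and 48 with AZ1366 (median 0.28), and the median of the combination was 0.43.

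**Figure D1:**
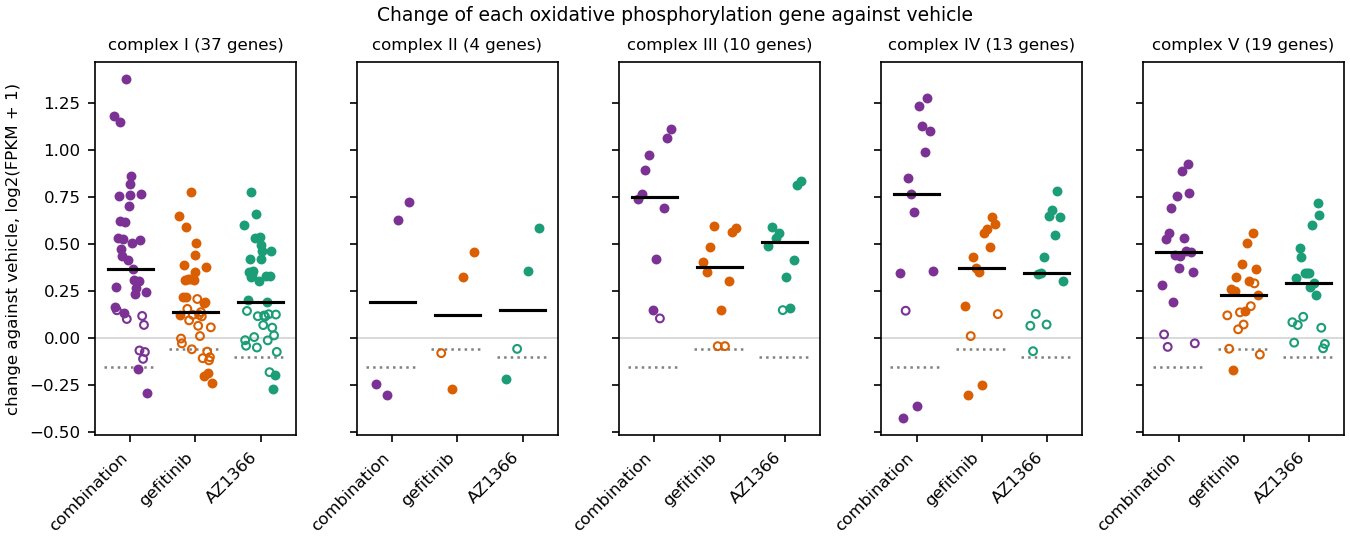
Fitted log2 change against vehicle for each of the 83 genes, in 1 panel per complex, with columns for the combination, gefitinib and AZ1366; filled points passed the test, open points did not, the black bar is the median of the complex and the dotted grey line that of all tested loci. Complexes III and IV have the highest medians in the combination (0.75 and 0.77), and complex II splits into 2 genes above and 2 below 0.

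Together, the 83 genes took 2.44 to 2.70% of the summed FPKM in combination libraries, 2.06 to 2.34% in gefitinib libraries, 1.98 to 2.37% in AZ1366 libraries and 1.70 to 1.92% in vehicle libraries. Their summed level averaged 12133 ± 578 FPKM with the combination, 9737 ± 833 with gefitinib, 10211 ± 738 with AZ1366 and 8060 ± 581 with vehicle (SD, n = 4 each). That is 1.51 times the vehicle level with the combination, 1.21 times with gefitinib and 1.27 times with AZ1366. Combination libraries stood above every other library in this sum.

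By complex, the summed level of complex IV moved most. It was 3298 ± 205 FPKM with the combination, 2454 ± 270.2 with gefitinib, 2558 ± 263 with AZ1366 and 1852 ± 173 with vehicle, or 1.78, 1.33 and 1.38 times the vehicle level for the 3 treatments in that order. Complex III summed to 1076 ± 81.0 FPKM with the combination, 846 ± 54.4 with gefitinib, 948 ± 58.4 with AZ1366 and 710.4 ± 65.7 with vehicle (1.51, 1.19 and 1.33 times). Complex I summed to 3696 ± 140 FPKM with the combination, 2983 ± 276 with gefitinib, 3094 ± 180 with AZ1366 and 2539 ± 134 with vehicle (1.46, 1.17 and 1.22 times). As deposited, in complexes I, III, IV and V every combination library lay above all 12 others. Complex V summed to 3699 ± 163 FPKM with the combination, 3128 ± 224 with gefitinib, 3265 ± 230.3 with AZ1366 and 2670 ± 192 with vehicle (1.39, 1.17 and 1.22 times). Complex II had the smallest sum and the smallest ratio, with 364 ± 8.5 FPKM with the combination, 326 ± 18.4 with gefitinib, 347 ± 27.7 with AZ1366 and 289 ± 22.6 with vehicle (1.26, 1.13 and 1.2 times), and 1 AZ1366 library (380.0) lay above all combination libraries. These sums are dominated by the most abundant members of each complex and carry no test.

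**Figure D2:**
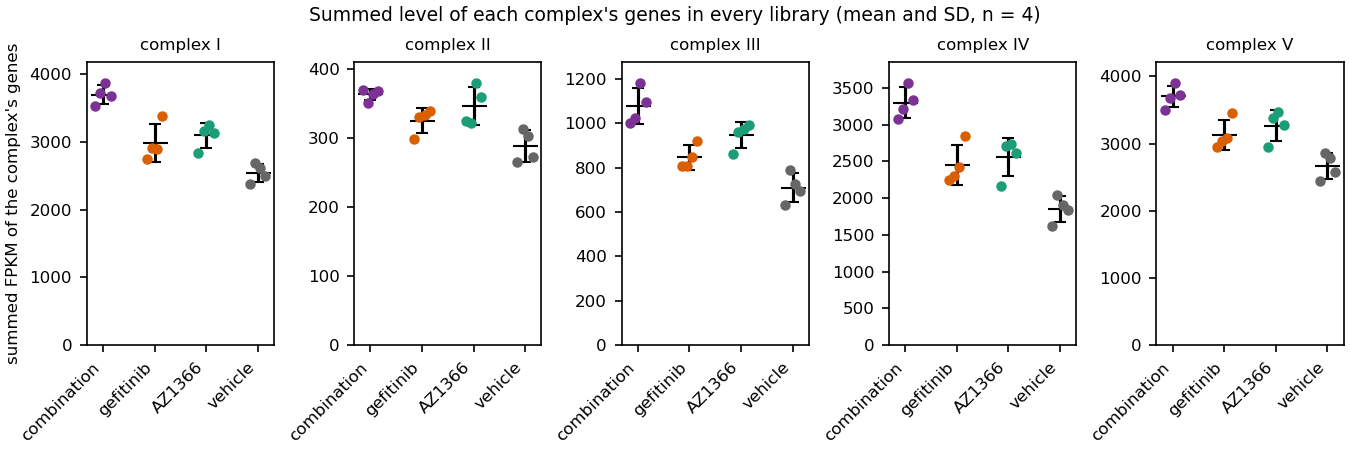
Summed FPKM of the members of each complex in every library, in 1 panel per complex, with the groups in the order combination, gefitinib, AZ1366 and vehicle; bars mark the mean and SD of 4 libraries. In complex IV the combination libraries lie between 3077 and 3561 FPKM and the vehicle libraries between 1626 and 2042.

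The most abundant member of each complex, per length and averaged over the 16 libraries, was NDUFS5 in complex I (228 FPKM), SDHD in complex II (146), UQCRH in complex III (253), COX7B in complex IV (530.1) and the joined locus ATP5E/SLMO2 in complex V (689.9). The median over the 83 genes was 79.2 FPKM, against 10.1 for all tested loci. The lowest was COX6B2, a form of the COX6B subunit known from testis, at 2.33 FPKM.

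Complex I is an L-shaped enzyme in which 7 nuclear core subunits hold the flavin and the iron-sulphur clusters, and the accessory subunits surround the core and the membrane arm. The accessory genes rose with the combination: 26 of 30 were higher, with a median log2 change of 0.49. Among them NDUFV3 was lower, and NDUFA12, NDUFB10 and NDUFS6, named to complete the count, did not pass.

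NDUFB1, a small subunit of the membrane arm (hg19, chr14:92582468-92588153), had the largest change of all 83. It stood at 92.7, 115, 113 and 94.3 FPKM in combination libraries, 61.5, 63.0, 62.9 and 87.4 in gefitinib libraries, 52.7, 69.6, 65.8 and 62.7 in AZ1366 libraries and 30.1, 45.7, 42.2 and 40.3 in vehicle libraries. Every treated library was above every vehicle library, and every combination library above every single-compound library. The log2 change was 1.38 with the combination (SE 0.129, limma adjusted p = 2.45e-08, 2.62-fold in mean FPKM), 0.78 with gefitinib and 0.66 with AZ1366. NDUFA1, a membrane-arm subunit encoded on the X chromosome (hg19, chrX:119004495-119010629), followed the same order, with 224, 251, 267 and 247 FPKM in combination, 161, 158, 163 and 205 in gefitinib, 143, 179, 170.4 and 169 in AZ1366 and 93.7, 120.5, 118 and 102 in vehicle libraries. Its log2 change was 1.18 with the combination (SE 0.095, adjusted p = 3.42e-09), 0.65 with gefitinib and 0.60 with AZ1366. Again no treated library overlapped the vehicle group.

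NDUFA4 had 160.4, 158, 193 and 176 FPKM in combination, 112, 98.9, 121 and 136 in gefitinib, 100.3, 149.7, 145 and 141 in AZ1366 and 61.8, 91.2, 81.7 and 75.0 in vehicle libraries. The change with the combination was 1.15 on the log2 scale (SE 0.130, adjusted p = 2.76e-07). Its relative NDUFA4L2, known from hypoxic cells, stayed under the filter with means of 0.407 FPKM in combination and 0.260 FPKM in vehicle libraries. NDUFS5, an intermembrane-space subunit and the most abundant of complex I, had 266, 289.7, 307 and 287 FPKM in combination, 204, 213, 211 and 252 in gefitinib, 210.1, 248, 238 and 238 in AZ1366 and 143, 182, 178 and 173 in vehicle libraries. Its groups were separate from vehicle throughout, and its log2 changes were 0.77, 0.38 and 0.47 for the combination, gefitinib and AZ1366. NDUFB5, a membrane-arm subunit, changed by 0.86 with the combination (adjusted p = 4.14e-07).

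Of the 7 core genes 2 were higher and 1 lower with the combination (28.6% and 14.3%, against 29.9% and 49.4% of all loci), and their median log2 change was -0.06 as deposited and 0.07 after median-ratio scaling, with 3 higher and 0 lower. The difference between core and accessory genes was not tested. NDUFV2, which carries an iron-sulphur cluster beside the flavin subunit, averaged 63.8 ± 0.101 FPKM with the combination and 53.9 ± 4.98 with vehicle (log2 change 0.24, adjusted p = 0.00578), and its change was -0.0078 after the correction for transcript length and GC content described further on. NDUFS1, the largest iron-sulphur subunit of the enzyme (hg19, chr2:206987803-207024243), had 30.3, 29.8, 30.6 and 31.4 FPKM in combination against 32.2, 34.6, 35.4 and 35.0 in vehicle libraries. It was lower by the test as deposited (log2 change -0.16, adjusted p = 0.00407), and after median-ratio scaling its change was -0.02 and did not pass.

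NDUFS3, NDUFS7, NDUFS8 and NDUFV1 did not pass with the combination as deposited. NDUFS3 averaged 39.3 ± 3.54 FPKM with the combination and 41.2 ± 4.26 with vehicle, and NDUFS7 26.7 ± 0.83 and 29 ± 2.88. NDUFS8 averaged 57.4 ± 1.80 FPKM with the combination and 54.7 ± 3.43 with vehicle, and the flavin-binding NDUFV1 48.4 ± 2.10 and 51.0 ± 2.87. Each of these pairs of groups overlapped. After the correction for length and GC content all of these genes were lower with the combination by the limma test. NDUFS3 changed by -0.27 (adjusted p = 0.00373), NDUFS7 by -0.25 (0.000137), NDUFS8 by -0.13 (0.013) and NDUFV1 by -0.10 (0.0121). NDUFS8 was higher after median-ratio scaling (0.21, adjusted p = 0.0201), so its direction depended on the processing. With single compounds, NDUFS7, which holds the cluster next to ubiquinone, was lower with AZ1366 (24.0, 22.4, 25.8 and 23.1 FPKM, against 32.8, 26.7, 26.9 and 29.6 with vehicle, adjusted p = 0.00276), and this call did not hold after median-ratio scaling, under which no member was lower with AZ1366. NDUFV3, an accessory subunit of the flavin module, had 8.11, 8.33, 8.90 and 8.42 FPKM in combination against 10.8, 11.4, 10.1 and 10.0 FPKM in vehicle libraries (log2 change -0.29, adjusted p = 0.000384). That change was -0.02 and did not pass when each library was corrected for transcript length and GC content.

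**Figure D3:**
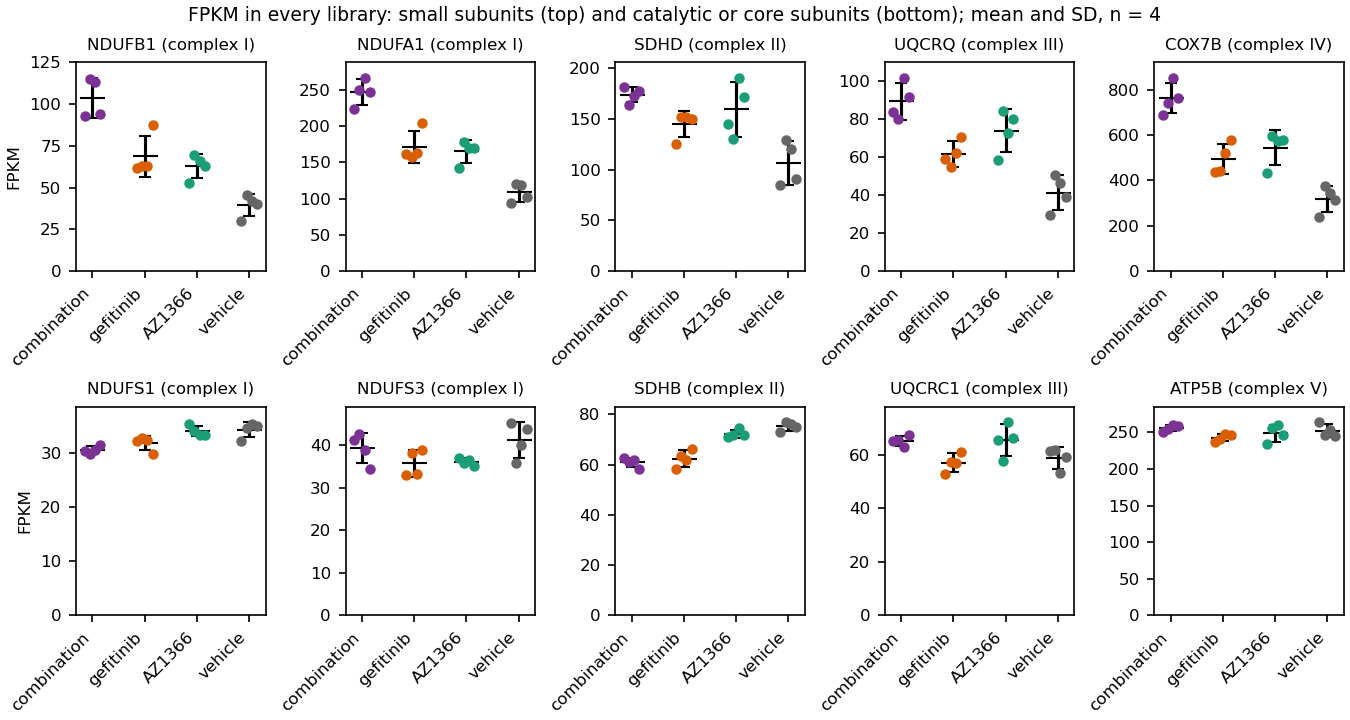
FPKM in every library, with the groups in the order combination, gefitinib, AZ1366 and vehicle, for 5 genes that rose with the combination (top row) and for NDUFS1, NDUFS3, SDHB, UQCRC1 and ATP5B (bottom row). The top row steps up in the combination, with NDUFB1 at 92.7 to 115 FPKM against 30.1 to 45.7 with vehicle, while SDHB is at 58.1 to 62.5 FPKM against 72.9 to 76.9.

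Complex II divided by role with the combination, with a share of lower genes near that of all loci (49.4% lower, 29.9% higher). The difference between the roles was not tested. Its membrane anchors, SDHC and SDHD, which hold the haem and bind ubiquinone, rose with the combination, and its catalytic subunits, SDHA and SDHB, fell. SDHD (hg19, chr11:111957571-111966518) had 181, 164, 172 and 178 FPKM in combination, 125.4, 152, 152 and 150.2 in gefitinib, 145, 130.3, 191 and 171 in AZ1366 and 84.8, 129, 121 and 90.9 in vehicle libraries. Combination and AZ1366 libraries were all above vehicle, and gefitinib library 1 fell within the vehicle range. The log2 changes were 0.73 with the combination (SE 0.126, adjusted p = 4.22e-05), 0.46 with gefitinib and 0.59 with AZ1366. SDHC had 80.0, 77.8, 88.4 and 88.8 FPKM in combination, 64.4, 61.5, 70.8 and 73.5 in gefitinib, 60.5, 75.7, 69.4 and 70.8 in AZ1366 and 49.8, 54.5, 54.6 and 55.6 in vehicle libraries, and no treated library overlapped vehicle. Its changes were 0.63 with the combination (SE 0.072, adjusted p = 3.21e-07), 0.33 with gefitinib and 0.36 with AZ1366.

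SDHB, the iron-sulphur subunit (hg19, chr1:17345225-17380665), had 62.5, 60.9, 62 and 58.1 FPKM in combination, 58.4, 63.5, 61.7 and 66.1 in gefitinib, 71.0, 71.8, 74.7 and 72.0 in AZ1366 and 72.9, 76.9, 76.3 and 75.0 in vehicle libraries. Combination and gefitinib libraries lay below all vehicle libraries, and AZ1366 libraries overlapped them. The log2 changes were -0.30 with the combination (adjusted p = 1.01e-05), -0.27 with gefitinib (adjusted p = 7.15e-05) and -0.06 with AZ1366 (adjusted p = 0.302), and SDHB was also lower with the combination than with AZ1366 (-0.25, adjusted p = 0.000166). SDHA, the flavoprotein that oxidises succinate, had 46.3, 48.4, 42.2 and 43.9 FPKM in combination, 50.5, 53.2, 48.8 and 50.3 in gefitinib, 49.4, 44.4, 45.2 and 45.2 in AZ1366 and 58.7, 52.7, 51.3 and 51.9 in vehicle libraries. It was lower with the combination (log2 change -0.24, adjusted p = 0.000785) and not shown to differ with gefitinib (-0.08, adjusted p = 0.232). With AZ1366 it was lower as deposited (-0.21, adjusted p = 0.00391) and not after median-ratio scaling. With the combination the split of complex II held under that scaling and after the correction for length and GC content, with 2 genes higher and 2 lower each time.

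In complex III 9 of 10 genes were higher with the combination, the copies UQCRHL and UQCRBP1 included, with a median log2 change of 0.75. The small subunits, which stabilise the dimer and lack redox centres, all rose: UQCRH, UQCRQ, UQCRB, UQCR10 and UQCR11, with a median of 0.77. UQCRQ, the subunit next to cytochrome b (hg19, chr5:132202319-132204536), had 83.8, 80.1, 102 and 92.0 FPKM in combination, 59.0, 54.6, 62.4 and 70.9 in gefitinib, 58.7, 84.4, 72.5 and 80.4 in AZ1366 and 29.3, 50.8, 46.2 and 39.2 in vehicle libraries. All treated libraries were above vehicle, while the combination and AZ1366 groups overlapped. Its changes were 1.12 with the combination (SE 0.140, adjusted p = 1.07e-06), 0.59 with gefitinib and 0.84 with AZ1366. UQCRH, the acidic hinge protein that binds cytochrome c1, had 282, 298, 366 and 317 FPKM in combination, 229, 229, 242 and 260.2 in gefitinib, 229, 273, 267 and 271 in AZ1366 and 167, 213, 202 and 196 in vehicle libraries. It changed by 0.69 with the combination (adjusted p = 8.59e-07), and its copy UQCRHL by 1.07.

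As deposited, the larger proteins of complex III changed less. UQCRC2, a core protein, had 166, 168, 179 and 179 FPKM in combination, 142, 137, 143 and 151 in gefitinib, 158, 147, 169 and 174 in AZ1366 and 124, 142, 119.6 and 131 in vehicle libraries (log2 change with the combination 0.42, adjusted p = 5.62e-06). The other core protein, UQCRC1, had 65.3, 65.8, 62.9 and 67.5 FPKM in combination and 61.4, 61.9, 53.1 and 59.2 in vehicle libraries. Its change of 0.15 was near the threshold (adjusted p = 0.0476) and did not pass when any 1 of 8 libraries was left out (vehicle 3 or 4, gefitinib 2 or 3, AZ1366 4, combination 1, 2 or 4), with an adjusted p of 0.0557 to 0.1765. The Rieske iron-sulphur protein, UQCRFS1, averaged 142 ± 7.34 FPKM with the combination and 132 ± 5.45 with vehicle and did not pass as deposited (log2 change 0.11, adjusted p = 0.0921). By the same limma test UQCRFS1 was higher after median-ratio scaling (0.25, adjusted p = 0.0113). It was also higher after the correction for length and GC content (0.38, adjusted p = 0.000346). After median-ratio scaling all 10 genes of complex III were higher.

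Complex IV had the highest median of the 5 complexes with the combination, 0.77, with 10 of 13 genes higher, COX4NB counted among the 13. The median of complex III lay within the spread between replicates of it (SD 0.13 in each complex). With single libraries left out the medians were 0.73 to 0.81 for complex IV and 0.68 to 0.82 for complex III. After the correction for length and GC content complex III was the higher (0.55 against 0.48). The nuclear subunits of complex IV surround the catalytic core, which is encoded by mitochondrial DNA. COX7B (hg19, chrX:77154961-77160881), a small transmembrane subunit, had 691, 743, 853 and 765 FPKM in combination, 437, 440.0, 523 and 577 in gefitinib, 433, 594, 575 and 579 in AZ1366 and 237, 375, 344 and 315 in vehicle libraries. Its 4 combination libraries lay above all others, and all treated libraries above vehicle. The log2 changes were 1.28 with the combination (SE 0.131, adjusted p = 7.9e-08, 2.40-fold in mean FPKM), 0.65 with gefitinib and 0.79 with AZ1366.

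COX6C followed with 110.2, 110.0, 129 and 128 FPKM in combination, 65.3, 74.6, 70.8 and 86.1 in gefitinib, 61.9, 84.7, 82.6 and 88.4 in AZ1366 and 39.0, 55.1, 58.5 and 48.9 in vehicle libraries, a change of 1.24 with the combination (SE 0.123, adjusted p = 5.28e-08). COX7C had 401, 416, 482 and 422 FPKM in combination, 286, 286, 290.3 and 361 in gefitinib, 260.1, 361, 331 and 307 in AZ1366 and 159, 232, 215 and 198 in vehicle libraries, a change of 1.10 (SE 0.114, adjusted p = 8.9e-08). Both are small single-pass membrane subunits, and in both the combination stood apart from the other 3 groups. COX5B, a zinc-binding subunit on the matrix side, changed by 0.85 (adjusted p = 3.32e-08).

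Where complex IV subunits have tissue forms, the ubiquitous form carried the transcript. COX4I1 had 319, 318, 314 and 321 FPKM in combination, 255, 302, 263 and 305 in gefitinib, 256, 254, 279 and 257 in AZ1366 and 237, 251, 256 and 253 in vehicle libraries (log2 change with the combination 0.35, adjusted p = 2.89e-05), while COX4I2 was listed at 0. COX6A1, the form outside muscle, averaged 325 ± 17.5 FPKM with the combination, 248 ± 29.7 with gefitinib, 243 ± 23.5 with AZ1366 and 190.4 ± 13.2 with vehicle (0.77 with the combination, adjusted p = 1.38e-07). COX7A2, likewise outside muscle, averaged 305 ± 23.2 FPKM with the combination, 209 ± 27.1 with gefitinib, 225 ± 39.6 with AZ1366 and 139 ± 14.8 with vehicle (1.13, adjusted p = 1.04e-07). COX7A2L, known for its role in joining complexes III and IV into supercomplexes, had 120.4, 117, 136 and 134 FPKM in combination and 56.8, 65.7, 71.1 and 59.6 in vehicle libraries (0.99, adjusted p = 5.95e-08).

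COX6B1 and COX6B2 went opposite ways. COX6B1 had 305, 324, 378 and 381 FPKM in combination, 256, 255, 273 and 328 in gefitinib, 259, 304, 304 and 305 in AZ1366 and 199, 235, 212 and 221 in vehicle libraries (log2 change with the combination 0.67, adjusted p = 2.16e-06). COX6B2 had 1.90, 1.96, 1.64 and 1.76 FPKM in combination, 2.05, 2.06, 2.06 and 1.98 in gefitinib, 3.41, 2.42, 2.62 and 2.85 in AZ1366 and 2.62, 2.92, 2.33 and 2.62 in vehicle libraries. It was lower with the combination (-0.36, adjusted p = 0.000152) and with gefitinib (-0.25, adjusted p = 0.00509), and its AZ1366 libraries overlapped vehicle (0.07, adjusted p = 0.38). COX5A, which also lies on the matrix side, averaged 159 ± 7.11 FPKM with the combination and 144 ± 12 with vehicle and did not pass (0.15, adjusted p = 0.0618). COX4NB, which is EMC8 of the endoplasmic reticulum membrane complex and no oxidase subunit (hg19, chr16:85812231-85833148), had the lowest change of all 83, with 14.9, 16.5, 16.7 and 16.6 FPKM in combination against 21.1, 21.5, 22.7 and 22.8 in vehicle libraries (-0.43, adjusted p = 3.77e-07).

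Complex V is a rotary enzyme with a membrane part, whose c ring turns, and a catalytic head held still by a peripheral stalk. With the combination 16 of the 19 genes counted by name were higher and none was lower as deposited, at a median of 0.46. The genes ATP5B, ATP5D and ATP5SL did not pass. Only 13 of the 19 are structural subunits under their own symbol, and ATP5S, copies and joined loci were among those higher. After the correction for length and GC content 14 of 18 were higher and 1, ATP5D, was lower. Of the small membrane subunits ATP5L and ATP5I had the largest changes of the complex, and the joined locus ATP5J2/PTCD1 changed by 0.47, near the median. ATP5L (subunit g) had 157, 164, 175 and 173 FPKM in combination, 113, 126, 141 and 142 in gefitinib, 119.9, 138, 175 and 152 in AZ1366 and 62.1, 105, 109 and 82.8 in vehicle libraries. Every treated library exceeded the vehicle libraries, with changes of 0.93 (SE 0.142, adjusted p = 1.1e-05), 0.56 and 0.72 for the combination, gefitinib and AZ1366. ATP5I (subunit e) had 181, 222, 232 and 193 FPKM in combination, 151, 139, 147 and 202 in gefitinib, 149, 186, 178 and 165 in AZ1366 and 89.4, 143, 115 and 102 in vehicle libraries, and changed by 0.89 with the combination (adjusted p = 7.89e-06). Subunits e and g are known to hold the dimers of the enzyme together.

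The 3 genes of the c subunit, ATP5G1, ATP5G2 and ATP5G3, encode the same mature protein with different import sequences. ATP5G2 had 115, 114, 131 and 136 FPKM in combination, 88.2, 91.5, 93.6 and 113 in gefitinib, 78.3, 97.9, 99.2 and 98.0 in AZ1366 and 63.8, 75.9, 77 and 74.9 in vehicle libraries. ATP5G1 averaged 67.3 ± 6.32 FPKM with the combination, 54.5 ± 8.51 with gefitinib, 63.2 ± 9.59 with AZ1366 and 49.1 ± 1.83 with vehicle. ATP5G3 averaged 89.0 ± 6.34 FPKM with the combination, 72.0 ± 5.80 with gefitinib, 87.5 ± 8.93 with AZ1366 and 68.4 ± 5.22 with vehicle. All 3 passed with the combination, with changes of 0.44, 0.76 and 0.38 for ATP5G1, ATP5G2 and ATP5G3, and ATP5G1 did not pass after the correction for length and GC content (0.17, adjusted p = 0.105). ATP5G2 also passed with gefitinib (0.40), and ATP5G1 and ATP5G3 did not (0.14 and 0.07).

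In the catalytic head, ATP5B, the beta subunit that makes ATP (hg19, chr12:57031959-57039852), had 251, 255, 260.3 and 259 FPKM in combination, 237, 242, 248 and 246 in gefitinib, 234, 256, 259.6 and 246 in AZ1366 and 264, 247, 254 and 245 in vehicle libraries. All groups overlapped the vehicle group, and the change with the combination was 0.02 (adjusted p = 0.681). After quantile normalization ATP5B was lower in all 3 treatments, by the same limma test (-0.17 with the combination, adjusted p = 0.003686, and -0.14 with gefitinib and -0.14 with AZ1366). ATP5A1, the alpha subunit, had 146, 160.3, 162 and 158 FPKM in combination, 137, 137, 141 and 145 in gefitinib, 121, 146, 146 and 134 in AZ1366 and 125.4, 128, 131 and 129.7 in vehicle libraries, and rose by 0.28 with the combination (adjusted p = 0.000214). The central stalk gene ATP5C1 averaged 276 ± 17.0 FPKM with the combination, 228 ± 12.9 with gefitinib, 238 ± 12.2 with AZ1366 and 190.5 ± 14.2 with vehicle, a rise of 0.53 with the combination (adjusted p = 6.48e-07). ATP5D, of the same stalk, had 47.1, 49.5, 48.4 and 48.4 FPKM in combination, 44.0, 44.8, 41.7 and 46.9 in gefitinib, 53.7, 48.9, 53.1 and 54.4 in AZ1366 and 49.5, 50.1, 50.1 and 50.1 in vehicle libraries. It was lower with gefitinib (-0.17, adjusted p = 0.00457) and did not pass with the combination as deposited (-0.05, adjusted p = 0.379), where the correction for length and GC content gave -0.24 (adjusted p = 1.2e-05). The joined locus ATP5E/SLMO2 had 743, 798, 881 and 793 FPKM in combination, 609, 619, 627 and 744 in gefitinib, 659.9, 813, 829 and 739.7 in AZ1366 and 472, 614, 581 and 515 in vehicle libraries (0.56 with the combination, adjusted p = 2.17e-05), and it may hold reads of both genes.

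ATP5O, which caps the head at the top of the peripheral stalk, had 420.4, 425, 472 and 467 FPKM in combination, 400.1, 436, 412 and 431 in gefitinib, 292, 356, 354 and 349 in AZ1366 and 296, 333, 340.1 and 328 in vehicle libraries. Combination and gefitinib libraries lay above all AZ1366 and vehicle libraries. The change was 0.46 with the combination (adjusted p = 7.54e-06), 0.37 with gefitinib (adjusted p = 0.000136) and 0.06 with AZ1366 (adjusted p = 0.484), and ATP5O was higher with the combination than with AZ1366 (0.40, adjusted p = 6.17e-05). All 4 genes of the peripheral stalk were higher with the combination, with a median of 0.45.

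Compared with gefitinib alone, the combination raised 61 of the 83 genes and lowered 2, where 15.3% of all loci were higher and 37.2% lower, and the median log2 change was 0.29 against -0.10 for all loci. All 10 genes of complex III were higher (median 0.38), with 26 of 37 in complex I (0.26), 9 of 13 in complex IV (0.39), 15 of 19 in complex V (0.29) and 1 of 4 in complex II (0.12). COX6C had the largest change here (0.68, adjusted p = 0.000317). The number higher ranged from 43, without gefitinib library 1, to 66, without gefitinib library 4, whose members stood high for their group. The 2 lower genes, SDHA and COX4NB, did not pass after median-ratio scaling, nor without gefitinib 2 or combination 4. SDHA was also lost without combination 3, and COX4NB without gefitinib 1 or 4, AZ1366 4 or combination 1.

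Compared with AZ1366 alone, the combination raised 39 genes and lowered 6, where 26.9% of all loci were higher and 35.7% lower, at a median of 0.19 against -0.05. Complex IV had the highest median (0.42, 9 of 13 genes higher), followed by complex III (0.25, 4 of 10), complex V (0.20, 8 of 19), complex I (0.17, 17 of 37) and complex II (0.06, 1 of 4). NDUFB1 had the largest change (0.72, adjusted p = 0.000114). The lowest change was that of COX6B2 (-0.44, adjusted p = 4.16e-05), with COX4NB (-0.36, adjusted p = 6.69e-06) and SDHB (-0.25) beside it.

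The effect of AZ1366 can be measured in separate libraries, against vehicle and on top of gefitinib. Of the 51 genes higher with AZ1366 than with vehicle, 48 (94.1%) were also higher with the combination than with gefitinib, which is 78.7% of the 61 higher there. Among all loci, 1349 were higher in both, 62.2% and 75.8% of the lists. For gefitinib, 31 of the 46 genes higher against vehicle (67.4%) were also higher with the combination than with AZ1366, which is 79.5% of the 39 there, and among all loci 2621 were higher in both (81.2% and 83.6%).

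Departure from the sum of the single effects on the log2 scale was tested as an interaction. No member passed in limma in either direction, where 0.326% of all loci were higher and 1.49% lower. An unadjusted p under 0.05 was found for 5 of the 83 members and for 1672 of all 11647 loci, which is a larger share. The median interaction was -0.03. The lowest values were -0.36 for ATP5L (adjusted p = 0.433), -0.32 for SDHD and -0.32 for UQCRHL, and the highest 0.35 for NDUFS7 (adjusted p = 0.0782), 0.31 for NDUFS3 and 0.31 for NDUFA11 (adjusted p = 0.154). NDUFA11, a membrane-arm subunit of complex I, passed after the correction for length and GC content (0.25, adjusted p = 0.0365) and without gefitinib library 4 (adjusted p = 0.0248). A miss of the threshold does not show that the effects add up.

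The scaling of the libraries mattered for size more than for direction. Median-ratio scaling moved the median of all loci to -0.03 with the combination and to 0.00 with AZ1366, against -0.15 and -0.10 as deposited. With AZ1366 3483 loci were then higher and 3603 lower, against 2168 and 4633 as deposited, and between combination and gefitinib 2931 were higher and 3388 lower, against 1780 and 4338. After scaling 71 of the 83 genes were higher and 5 lower with the combination (median 0.61), 39 and 5 with gefitinib (0.24), and 63 and 0 with AZ1366 (0.44). By complex, the scaled medians with the combination were 0.51 for complex I, 0.33 for II, 0.89 for III, 0.91 for IV and 0.60 for V. The scaled sums were 1.61, 1.39, 1.67, 1.97 and 1.53 times the vehicle sums for complexes I to V, and complexes II and IV again had the lowest and highest ratio. In complexes I and IV every combination library still lay above all other libraries. In complexes III and V this did not hold after scaling. AZ1366 library 2 (1064 in III, 3737 in V) then lay above combination library 2 in complex III (1023) and combination library 1 in complex V (3580).

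Transcripts of these genes are short, with a median length of 945 nucleotides for the 82 genes with a known length, against 2777 for 11531 loci, and their GC content is close to that of all loci (50.04% and 48.8%). Across loci, shorter transcripts had higher changes with the combination (Spearman's rho -0.335). Across the 82 genes the same relation held (rho -0.325), where the points share libraries and depth. Among these 82, genes richer in GC had lower changes against vehicle with the combination (rho -0.423), gefitinib (-0.432) and AZ1366 (-0.511). In the interaction GC-rich genes had higher values (rho 0.547). No relation to GC content was computed across all loci, and the part of GC content alone was not tested. Of 861 loci with transcripts of up to 1000 nucleotides, 485 were higher with the combination and 197 lower, at a median of 0.27. Of the 44 members of that length, copies and joined loci included, 39 were higher and 0 lower, at a median of 0.53. Of the 38 longer members, COX4NB and other genes that are no subunits included, 25 were higher and 6 lower (median 0.37), against 2957 and 5516 of 10670 longer loci (median -0.18).

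When each library was corrected for a smooth trend on length and GC content, the median of loci up to 1000 nucleotides became 0.01 and that of the 82 genes 0.32, with 56 higher and 12 lower with the combination. The corrected medians by complex were 0.18 for complex I, 0.13 for II, 0.55 for III, 0.48 for IV and 0.28 for V. NDUFB1 then changed by 1.04, COX7B by 0.89, NDUFA1 by 0.93, COX6C by 0.98, NDUFA4 by 1.10, UQCRQ by 0.81 and SDHD by 0.53, and SDHB by -0.50. With gefitinib the corrected median of complex I was 0.02, with 13 genes higher and 7 lower, against 17 and 3 as deposited. The share of complex I genes higher is near that of all loci, and the share lower is under it. Of all loci, 33.5% were higher and 38.2% lower with gefitinib after the correction. With the combination 40.1% of all loci were higher and 41.5% lower after it. Of the 7 core genes of complex I, 1 was higher and 4 lower with the combination after the correction.

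**Figure D4:**
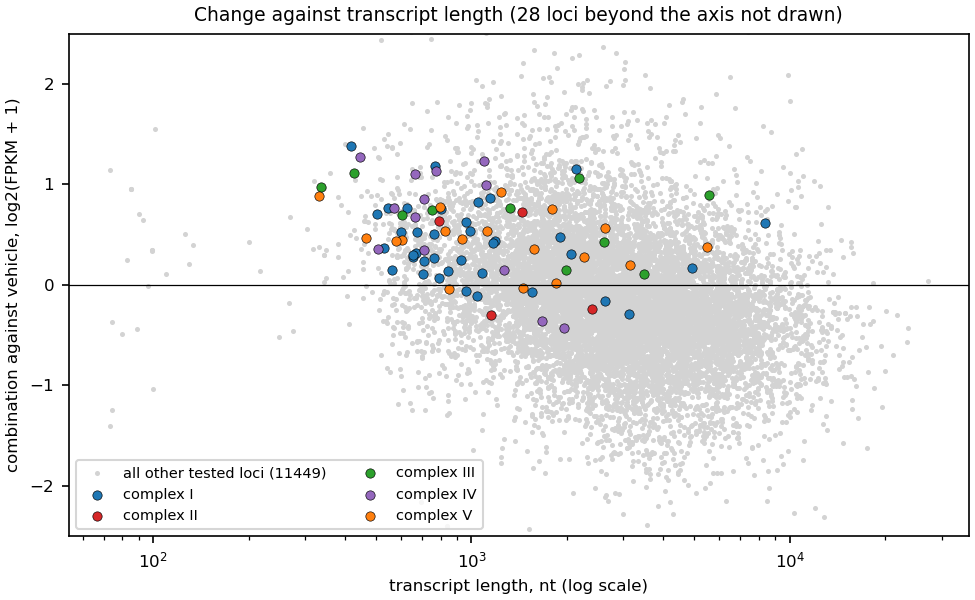
Log2 change of the combination against vehicle, plotted over transcript length in nucleotides on a log axis, with the 82 genes coloured by complex over 11449 other loci in grey; 28 loci beyond 2.5 on the log2 axis are not drawn. The 44 genes of up to 1000 nucleotides have a median of 0.53, against 0.27 for all loci of that length, these genes included.

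Counts for other genes around the mitochondrion are read here against all loci, of which 29.9% were higher and 49.4% lower with the combination as deposited, and 38.1% and 42.7% after median-ratio scaling. Of 73 genes of the mitochondrial ribosome, which makes the subunits encoded by mitochondrial DNA, 15 were higher and 29 lower with the combination (20.5% and 39.7%), at a median of -0.05, both shares under those of all loci, and the balance turned to 26 higher and 22 lower after median-ratio scaling. With gefitinib 6 were higher and 33 lower, where 27.7% of all loci were higher and 36.9% lower. Of 72 genes of the cytosolic ribosome, which have short transcripts like the subunits (median 827 nucleotides), 61 were higher and 2 lower with the combination (median 0.49), and 46 and 6 (median 0.26) after the correction for length and GC content. No test of a difference from the cytosolic ribosome was made.

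Of 13 genes for factors that read and copy mitochondrial DNA, 9 were lower (69.2%) and 2 higher with the combination (median -0.25). After median-ratio scaling 6 were lower and 3 higher, a lower share near that of all loci. TFAM, which packages and activates mitochondrial DNA, averaged 15.7 ± 0.381 FPKM with the combination, 20.1 ± 0.979 with gefitinib, 23.6 ± 1.67 with AZ1366 and 28.1 ± 0.761 with vehicle (log2 change with the combination -0.80, adjusted p = 2.5e-10). The mitochondrial RNA polymerase POLRMT changed by -0.97, the DNA polymerase POLG by -0.98 and the helicase C10orf2 (Twinkle) by -1.25. SSBP1, which binds single-stranded mitochondrial DNA, was higher (0.15, adjusted p = 0.0147).

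Among nuclear regulators of respiratory genes, 6 of 9 were lower and 0 higher with the combination, at a median of -0.53, and 1 was higher and 6 lower after median-ratio scaling. NRF1 averaged 3.50 ± 0.728 FPKM with the combination and 5.43 ± 0.272 with vehicle (-0.53, adjusted p = 2.72e-05). YY1 averaged 32.3 ± 6.60 FPKM with the combination and 65.2 ± 3.01 with vehicle (-1.01, adjusted p = 6.5e-05), and the GABP subunit gene GABPB1 8.80 ± 0.480 and 13.5 ± 0.868 (-0.56, adjusted p = 1.22e-05). The DNA-binding subunit gene GABPA did not pass (-0.01, adjusted p = 0.932), nor did the nuclear receptor ESRRA (-0.04, adjusted p = 0.681). The coactivator PPRC1 changed by -1.29 and the cofactor HCFC1 by -1.01. PPARGC1A and PPARGC1B, the best known coactivators of respiratory genes, were under the filter, with means of 0.146 and 0.108 FPKM in combination and 0.0600 and 0.342 FPKM in vehicle libraries. Of the 50 members with a promoter window that were higher with the combination, 10 held the NRF1 letters, 8 the ETS letters and 9 the YY1 letters. Of the 16 that were not higher, 3 held the NRF1 letters, 1 the ETS letters and 2 the YY1 letters.

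Assembly factors were mixed with the combination. For complex I 3 of 12 were higher and 4 lower (5 and 4 after median-ratio scaling), among them TIMMDC1 (0.36) and NDUFAF2 (-0.58). For complex II 1 of 4 was higher and 2 were lower, with C6orf57 at 0.51 and SDHAF1 at -0.40. For complex III 1 of 6 was higher and 4 lower, and LYRM7, which holds the Rieske protein before its insertion, averaged 4.07 ± 0.240 FPKM with the combination and 9.42 ± 0.768 with vehicle (-1.04, adjusted p = 8.1e-09). BCS1L, the translocase that inserts it, changed by -0.65. For complex IV 6 of 16 were higher and 6 lower (8 and 5 after the scaling), including C12orf62 (0.79), COA5 (0.68) and SURF1 (0.46) on one side and COX19 (-0.71), LRPPRC (-0.58) and the copper chaperone SCO1 (-0.52) on the other. For complex V 1 of 4 was higher, the inhibitor ATPIF1 (0.29), and 1 lower, ATPAF2 (-0.15), which did not pass after the scaling.

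The tricarboxylic acid cycle, which feeds the chain with NADH and succinate, had 5 genes higher and 8 lower of 14 with the combination (35.7% and 57.1%, median -0.23), near the shares of all loci. IDH3A, the catalytic subunit of the NAD-dependent isocitrate dehydrogenase, averaged 11.4 ± 0.525 FPKM with the combination and 25.2 ± 1.42 with vehicle (-1.08, adjusted p = 1.83e-12), citrate synthase (CS) changed by -0.45, and the NADP-dependent IDH2 by 0.43. Of 18 genes of protein import 3 were higher and 9 lower (16.7% and 50%, median -0.17), a lower share like that of all loci, and the balance was 5 and 7 after median-ratio scaling. TOMM40, the import channel of the outer membrane, averaged 24.8 ± 1.04 FPKM with the combination, 38.6 ± 2.64 with gefitinib, 49.3 ± 4.39 with AZ1366 and 78.1 ± 3.14 with vehicle (-1.61, adjusted p = 3.27e-13), while its small partner TOMM7 was higher (0.84, adjusted p = 5.95e-06), as was TIMM8B (0.60). CYC1 averaged 71.7 ± 1.17 FPKM with the combination and 71.6 ± 2.47 with vehicle (0.00, adjusted p = 0.977). Cytochrome c itself, CYCS, was lower, at 79.3 ± 1.56 and 108 ± 5.44 FPKM (-0.43, adjusted p = 8.29e-08).

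**Figure D5:**
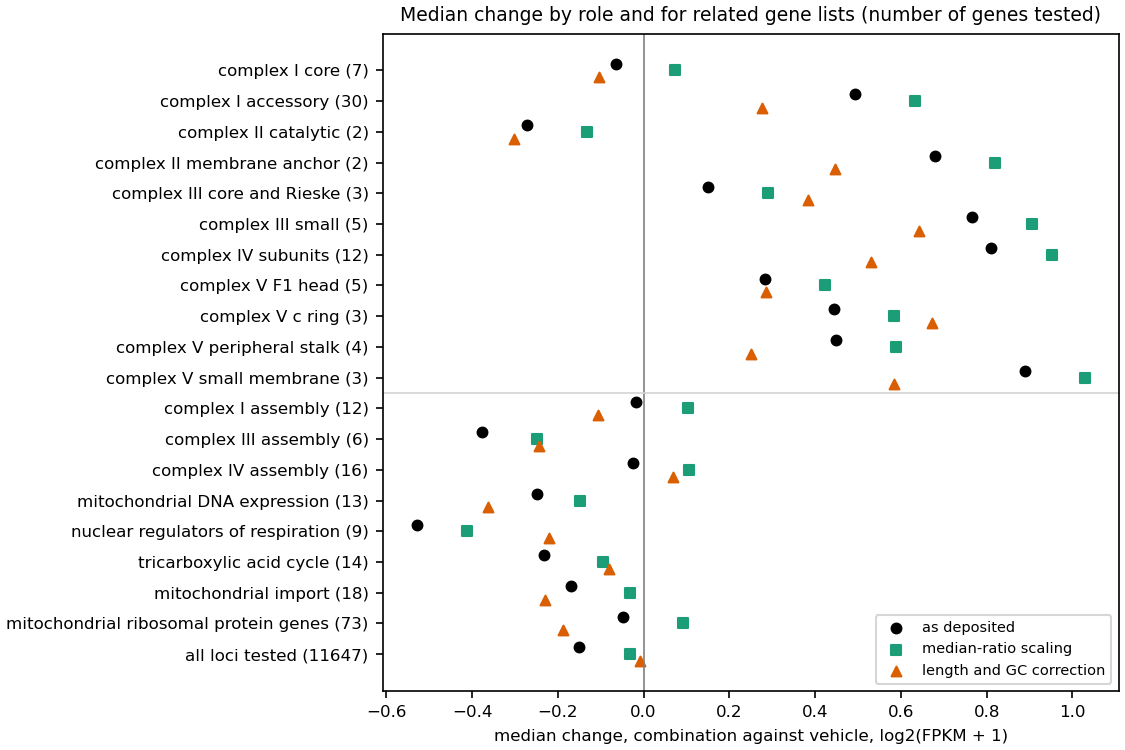
Median log2 change of the combination against vehicle for each role of the subunit genes and for the larger lists of mitochondrial genes, as deposited, after median-ratio scaling and after the correction for length and GC content. The small subunits of complex III lie at 0.77 as deposited, the subunits of complex IV at 0.81, the small membrane subunits of complex V at 0.89, the core of complex I at -0.06 (0.07 after median-ratio scaling), and the nuclear regulators at -0.53.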

How the data were processed

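PolyA RNA of HCC4006 cells went into TruSeq RNA v2 libraries, per the labels' protocols. Reads were processed with TopHat 1.4.1, Cufflinks 1.3.0 and Cuffdiff against hg19, per the submitters' processing notes, and the authors deposited FPKM values per locus for 16 libraries, 4 per group. Use of strand is not given in the sources used here, and the values held no whole-read steps from which depth could be recovered (the fullest bin held 5.24% of ratios), so the precision is that of the 4 libraries. Of 24293 loci, 11647 with a mean of at least 1 FPKM were fitted as log2(FPKM + 1) with limma 3.58.1 in R 4.3.3, with a mean-variance trend, the 4 groups as a factor and 12 residual degrees of freedom. Changes on that scale understate those of low genes. The p-values were adjusted by Benjamini-Hochberg over all loci, with a threshold of 0.05. Group levels and sums were made in R, and figures in Python 3.11.15 with pandas 2.3.3 and matplotlib 3.10.9.

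The alternatives were median-ratio scaling, quantile normalization, a pseudocount of 0.1, no filter, a minimum mean of 5 FPKM, no trend, a replicate block, the compared libraries alone, structural subunits alone, a correction of each library for transcript length and GC content (5 spline terms each, GENCODE 29 transcripts on GRCh38, 82 of the 83 genes and 99.0% of loci), and each library left out in turn. The fit was also tested on simulated data. The genes named were, in each complex, the member with the highest mean, the members with the largest and smallest change in each pairwise comparison, the 3 largest and 3 smallest interactions, all of complex II, the core of complex I, the larger proteins of complex III, the head of complex V and the tissue forms. NDUFA1, NDUFB5, NDUFA12, NDUFB10, NDUFS6, COX5A, COX5B, COX7C, ATP5I, ATP5O and the genes named from related lists were added after their values were seen. The members and lists were chosen with earlier results of these data known. Promoters were RefSeq entries of GRCh38.p14. The result of 1 member is not reported here.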

Additional observations from a re-analysis of the deposited data

Results flagged for a closer look

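In 19 of 204 sets of 4 libraries, 1 library lay far from the other 3 relative to the range, where chance gives about 1 in 20. Gefitinib library 4 was high for NDUFB1 (87.4 FPKM, others 61.5 to 63.0), NDUFA1 (205, others 158 to 163), NDUFV3 (10.1, others 8.31 to 8.51), COX5A (166, others 135 to 139.7), COX7C (361, others 286 to 290.3) and ATP5E/SLMO2 (744, others 609 to 627), and low for NDUFS1 (29.8, others 32.2 to 32.7). AZ1366 library 1 was low for UQCRH (229 FPKM, others 267 to 273), COX6B1 (259, others 304 to 305), COX7A2L (73.7, others 97.9 to 102), COX7B (433, others 575 to 594), ATP5G2 (78.3, others 97.9 to 99.2) and ATP5O (292, others 349 to 356).

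Other libraries stood apart for fewer genes. Vehicle library 1 was low for ATP5G2 (63.8 FPKM, others 74.9 to 77) and ATP5D (49.5, others 50.1). Gefitinib library 1 was low for SDHD (125.4, others 150.2 to 152). Combination library 2 was low for NDUFB5 (190.3, others 225 to 232), combination library 1 was low for COX4NB (14.9, others 16.5 to 16.7), and AZ1366 library 3 was high for COX4I1 (279, others 254 to 257).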

How the results depend on the processing

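Medians were judged against the spread between replicates (0.057 to 0.130 by complex). After median-ratio scaling the combination against vehicle had medians of 0.61 for all members and 0.51, 0.33, 0.89, 0.91 and 0.60 for complexes I to V. AZ1366 against vehicle then had 0 members lower, a median of 0.44, and 0.31, 0.27 and 0.42 for complexes I, II and V. Combination against gefitinib had 0 lower, a median of 0.40, and 0.36, 0.22 and 0.40 for the same complexes. After the length and GC correction the combination against vehicle had 12 lower, a median of 0.32, and 0.18, 0.13, 0.55, 0.48 and 0.28 for complexes I to V, and NDUFS8 (-0.13) and NDUFV2 (-0.0078) changed sign. Gefitinib against vehicle had 12 lower and 0.021, 0.23 and 0.13 for complexes I, IV and V. AZ1366 against vehicle had 6 lower, a median of 0.18, and 0.047, 0.37, 0.19 and 0.13 for complexes II to V. Combination against gefitinib had 1 lower, a median of 0.19, and 0.15, 0.056, 0.25 and 0.17 for complexes I, II, IV and V, with ATP5D at -0.047, and the interaction had 1 member higher.

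With quantile normalization the combination against vehicle had 0.26, 0.63 and 0.35 for complexes II, IV and V and ATP5B at -0.17 (adjusted p = 0.003686, now lower), and AZ1366 against vehicle had 0.20 for complex V. Combination against gefitinib had 1 lower, 0.19 for complex V and COX4NB at 0.0013, and combination against AZ1366 had 3 lower. With the compared libraries alone, or structural subunits alone, combination against gefitinib had 1 lower, and structural subunits alone gave 0.15 for complex V with gefitinib. Leaving out vehicle 1 and AZ1366 1 together, chosen after seeing the data, also gave 0.15 there. With single libraries left out that median was 0.15 to 0.25, the members lower in combination against gefitinib 0 to 2, and the members higher in the interaction 0 to 1. The cause of these changes was not tested. Results of single members were compared over all fits without a library, the fit without vehicle 1 and AZ1366 1 included. Direction and side of the threshold were kept in 3184 of these results, the call was gained in 26 and lost in 105.

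Same-numbered libraries did not deviate together throughout (r -0.447 to 0.539, 16 of 24 pairs over 0.1), and 8 of 16 correlated best with their own number. A replicate block kept every count of members within 1.5 times, and the adjusted p of UQCRC1 with the combination was 0.0562. Summing rows of 1 symbol was not run, because each of the 89 symbols had 1 row. Depth is unknown, so low levels have no counting limit.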
